A study of Mus musculus with 16 samples.

Results

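The genes described here are 34 genes of cholesterol and fatty acid synthesis. They were chosen by their known roles: 7 enzymes of the mevalonate pathway, 11 enzymes that turn its product into squalene and then sterols, 5 genes of sterol sensing, 1 cholesterol transfer gene, 8 genes of fatty acid synthesis and modification, and 2 cholesterol exporters. The choice was made with earlier results of these data known. All 34 were among the 48593 genes of the deposited count table, and 34 of 34 passed the filter on low counts, as part of the 16606 genes tested.

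The study sequenced RNA of mouse splenic germinal centre B cells, sorted as B220+/PNA+/CD95+ cells after intraperitoneal immunisation with sheep red blood cells. Germinal centres are the sites where B cells mutate and select their antibodies, and Crebbp, the gene altered here, encodes a histone acetyltransferase. The labels give 2 cohorts. The KO cohort held 3 Crebbp-WT libraries (KO cohort WT) and 3 Crebbp-KO (homozygous) libraries (KO). The RH cohort held 3 Crebbp-WT libraries (RH cohort WT), 4 Crebbp-RH/WT (heterozygous) libraries (RH HET) and 3 homozygous RH libraries (RH HOMO), RH being an arginine-to-histidine knock-in. The series title calls both alleles conditional and specific to germinal centre cells. The labels used here give neither the Cre driver, the deleted part of the gene, the strain, the age, nor whether the wild type mice carried Cre, and they give 12 days after immunisation in one field and 10 days in another. Whether each library stands for its own mouse is not stated, so a p-value here reflects differences among libraries that may be technical.

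Cholesterol is built from acetyl-CoA through mevalonate, squalene and lanosterol, and fatty acids are built from the same acetyl-CoA by Acly, Acaca and Fasn. When sterols are low in the endoplasmic reticulum, the escort protein Scap carries the SREBP transcription factors, encoded by Srebf1 and Srebf2, to the Golgi, where they are cut and released to switch on these enzymes, and Insig1 and Insig2 hold them back when sterols are plentiful. Excess cholesterol acts in the other direction, through oxysterols and the LXR receptors, which raise the exporters Abca1 and Abcg1 and also Srebf1.

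SREBP binds sterol regulatory elements, often beside a CCAAT box bound by NF-Y, and the start regions of the members were searched for both. RefSeq promoter windows on GRCm38.p6, 300 bases each around a gene's start, were matched by symbol for 26 of the 34 genes, which had 34 windows. The 5 windows printed here belong to the members that carried the sterol element core or lay near the top of the comparisons below, read 5′ to 3′ on the gene's strand, with matches in capitals (CCAAT or its reverse complement ATTGG, the core TCACNCCAC, and the E-box CACGTG).
Hmgcs1, chr13:119690101-119690400, plus strand: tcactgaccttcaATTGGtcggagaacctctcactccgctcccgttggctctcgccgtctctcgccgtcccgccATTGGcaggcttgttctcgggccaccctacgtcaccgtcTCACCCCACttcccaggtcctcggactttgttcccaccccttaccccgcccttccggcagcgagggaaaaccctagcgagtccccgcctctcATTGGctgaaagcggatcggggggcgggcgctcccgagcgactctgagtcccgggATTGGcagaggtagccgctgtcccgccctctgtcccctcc
Idi1, chr13:8885356-8885655, plus strand: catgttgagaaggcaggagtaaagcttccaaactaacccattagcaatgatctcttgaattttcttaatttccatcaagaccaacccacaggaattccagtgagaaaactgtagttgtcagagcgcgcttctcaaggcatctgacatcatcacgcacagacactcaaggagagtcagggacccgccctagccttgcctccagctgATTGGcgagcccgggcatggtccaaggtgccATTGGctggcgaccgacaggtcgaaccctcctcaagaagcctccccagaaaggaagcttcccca
Fasn, chr11:120824498-120824797, minus strand: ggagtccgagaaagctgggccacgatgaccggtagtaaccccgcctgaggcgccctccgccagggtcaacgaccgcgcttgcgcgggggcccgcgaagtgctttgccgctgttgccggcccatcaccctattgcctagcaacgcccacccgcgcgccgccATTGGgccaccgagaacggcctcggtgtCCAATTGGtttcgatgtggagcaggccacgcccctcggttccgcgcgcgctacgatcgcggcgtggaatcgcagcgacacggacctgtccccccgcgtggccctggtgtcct
Srebf1, chr11:60210422-60210721, minus strand, one of its 3 windows: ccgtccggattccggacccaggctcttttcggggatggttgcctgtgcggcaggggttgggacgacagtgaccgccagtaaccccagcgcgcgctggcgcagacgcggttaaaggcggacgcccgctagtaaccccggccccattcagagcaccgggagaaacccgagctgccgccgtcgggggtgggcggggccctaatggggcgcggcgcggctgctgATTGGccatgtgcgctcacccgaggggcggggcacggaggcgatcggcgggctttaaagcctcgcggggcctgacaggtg
Scap, chr9:110333038-110333337, plus strand, one of its 2 windows: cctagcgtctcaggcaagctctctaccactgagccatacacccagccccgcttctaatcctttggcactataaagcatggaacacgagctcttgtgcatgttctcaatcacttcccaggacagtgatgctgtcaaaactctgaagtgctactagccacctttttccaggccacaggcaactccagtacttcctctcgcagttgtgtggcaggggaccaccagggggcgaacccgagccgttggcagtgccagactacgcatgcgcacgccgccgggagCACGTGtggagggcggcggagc

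CCAAT, searched on both strands, was found in 21 of the 34 windows (61.8%), against 37.408% of all 32851 RefSeq windows and 38.095% of the 13041 windows of tested genes. The 20 genes with a match were Acly, Cyp51, Dhcr7, Ebp, Fasn, Hmgcs1, Hsd17b7, Idi1, Insig1, Insig2, Lss, Msmo1, Mvd, Mvk, Nsdhl, Pmvk, Sc5d, Srebf1, Srebf2 and Tm7sf2. In Fasn a CCAAT and an ATTGG overlapped. The sterol element core TCACNCCAC was found in 1 window (Hmgcs1), against 1.242% of all windows. The E-box CACGTG was in 7 windows (20.6%) of 6 genes (Abca1, Dhcr7, Hsd17b7, Insig1, Sc5d and Scap), against 7.15% of all windows and 9.646% of those of tested genes; the 2 Scap windows overlap and hold the same match. The cAMP response element TGACGTCA was in 0 of 34, against 1.79%. A match describes the letters of the window, and no binding was measured here.

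The libraries held 41362856 to 93040297 counts. Sorted cells carried their markers throughout: the 12 germinal centre B cell genes summed to 9918 to 12645 CPM (counts divided by TMM-scaled library size and put on a common scale). The 6 follicular B cell genes summed to 777 to 1461 CPM. T cell markers summed to 2.21 to 5.91 CPM, neutrophil markers to at most 0.53 CPM, and macrophage markers, 10 of 15 of them under 1 CPM on average, to 18.4 to 38.3 CPM. Counts over the whole Crebbp gene were 123 ± 14.5 CPM (SD, n = 3) in KO and 136 ± 11.6 CPM (SD, n = 3) in KO cohort WT, a log2 difference of -0.14 ± 0.17 (SE; adjusted p = 0.826). Those counts do not resolve the deleted part, so they did not check the labels of the libraries called KO. RH HOMO 2 and RH cohort WT 1 stood apart from the rest on the first principal component, at 77.1 and 50.7 against -40.7 to 24.3 for the other libraries, and the batch tag of RH cohort WT 1 names the KO cohort, against its title. The share of counts on mitochondrially encoded genes was 7.34%, 7.15% and 4.72% in RH cohort WT 1, 2 and 3. It was 3.93% to 5.84% in RH HET, 4.32% to 5.28% in RH HOMO, 3.90% to 4.47% in KO cohort WT and 3.43% to 4.65% in KO. A term for this share was fitted as an alternative.

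The pathway was expressed above the typical gene in the 6 wild type libraries. On a scale of CPM per kb of exon, the median member stood at 11.8 and the median tested gene at 3.87. Scd1, the desaturase that makes oleate from stearate, was the most abundant member at 108 ± 9.32 CPM per kb (SD, n = 6). Srebf2, the transcription factor that favours the cholesterol genes, came second at 64.4 ± 7.57 CPM per kb (SD, n = 6), and was more abundant than Srebf1, which favours the fatty acid genes, at 20.8 ± 3.94 CPM per kb (SD, n = 6). Acly, which makes cytosolic acetyl-CoA from citrate, was at 49.7 ± 2.88 CPM per kb and Scd2, a second desaturase, at 44.4 ± 7.69 CPM per kb (SD, n = 6 each). Acly and Scd2 did not differ beyond their spread, while Scd1, Srebf2 and Acly stood apart from each other by more than 1 SD.

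Among the 18 mevalonate, squalene and sterol enzymes Cyp51, the lanosterol demethylase, led with 38.2 ± 3.65 CPM per kb (SD, n = 6), and Hmgcs1, which makes HMG-CoA, followed with 35.0 ± 5.17 CPM per kb (SD, n = 6). Lss, which closes the sterol ring, was lowest of that group on this scale at 3.95 ± 0.71 CPM per kb (SD, n = 6). That rests on 10.8 kb of exon, the union of all its annotated exons. In CPM Lss stood at 42.6, above Mvk at 12.0. Of the fatty acid genes, Fasn, the fatty acid synthase, was at 23.3 ± 2.67 CPM per kb and Elovl6, which lengthens palmitate, at 2.48 ± 0.43 CPM per kb (SD, n = 6 each). The exporters were also low in the order, Abca1 at 3.33 ± 0.89 and Abcg1 at 0.63 ± 0.20 CPM per kb (SD, n = 6 each). Scd1 and Scd2 are close relatives, and how reads shared between them were assigned is not stated.

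**Figure D1:**
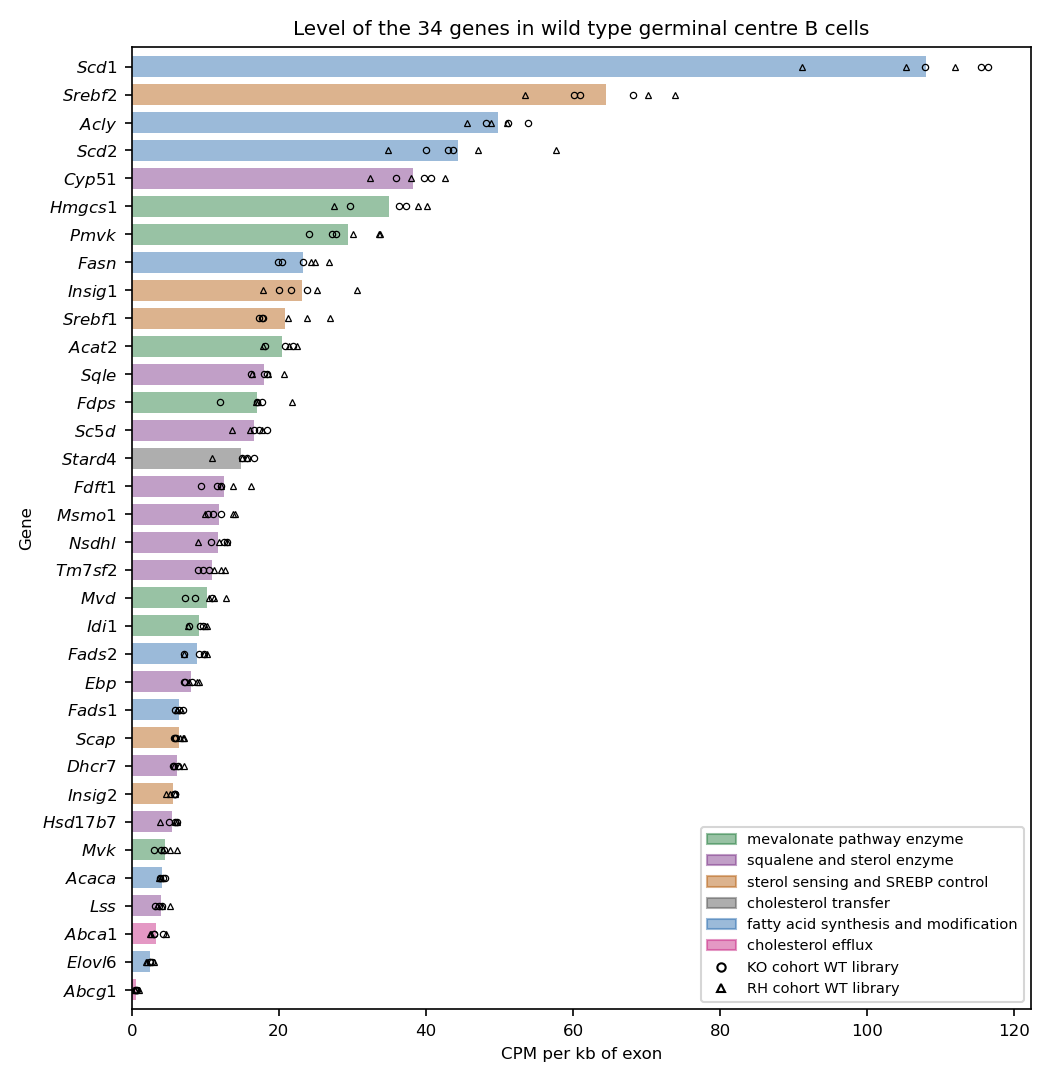
Level of each of the 34 genes in the 6 wild type libraries, in CPM per kb of exon on a linear axis from 0; bars are means, coloured by role, circles KO cohort WT libraries and triangles RH cohort WT libraries. Scd1 stands highest at 108 and Abcg1 lowest at 0.63, and the fatty acid and sterol genes are spread through the order.

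In KO against KO cohort WT, 0 members passed an adjusted p of 0.05 in edgeR's quasi-likelihood test, where 1.3% of all tested genes did. At an unadjusted p under 0.05 there were 4 members, or 11.8%, against 12.1% of all genes. DESeq2 and limma-voom each called 2, Srebf1 and Scap, and their shares over all genes are not given here. The median log2 difference of the 34 genes was 0.07, with 22 positive and 12 negative, beside -0.002 over all tested genes, and with 1 library left out it ran from 0.05 (without KO cohort WT 2) to 0.13 (without KO cohort WT 1). The 95% interval of the difference lay within 2-fold for 34 of 34 members and within 1.5-fold for 27, and within 1.5-fold for 49.1% of all tested genes.

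The smallest p values in KO belonged to 2 sterol sensing genes, Scap and Srebf1. Scap, the escort protein, measured 43.1, 44.2 and 44.4 CPM in KO cohort WT and 54.8, 56.6 and 53.1 CPM in KO. Every KO library was above every KO cohort WT library, and the log2 difference was 0.32 ± 0.08 (SE; adjusted p = 0.0556). Srebf1 measured 100.4, 97.8 and 100.1 CPM in KO cohort WT and 131, 132 and 125 CPM in KO, again without overlap, a log2 difference of 0.38 ± 0.10 (SE; adjusted p = 0.0865). The RH cohort WT libraries, whose Crebbp genotype is also wild type, stood at 53.1, 49.0 and 51.5 CPM for Scap and at 120.0, 152 and 134 CPM for Srebf1. So the KO values of Srebf1 lay inside the range of the other cohort's wild type, and those of Scap lay just above its highest library. Fitted on the KO cohort alone, Scap, Srebf1 and Scd2 were called (3 members), and the share over all genes in that fit is not given here. Of Scap's exon bases, 13.2% overlap 5830462I19Rik on the other strand, and of those of Srebf1 1.93% overlap Rai1, and the counts cannot tell these apart.

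The other sterol sensing genes differed less. Srebf2 was at 453 ± 31.3 CPM in KO cohort WT and 462 ± 42.4 CPM in KO (SD, n = 3 each), a log2 difference of 0.03 (95% interval -0.32 to 0.38). Insig1 was at 67.6 ± 5.94 and 64.2 ± 4.81 CPM, and Insig2 at 20.3 ± 0.44 and 19.9 ± 1.28 CPM (SD, n = 3 each), with intervals of -0.44 to 0.29 and -0.29 to 0.24 on the log2 scale. The signs of these 3 differences turned under 1 or more of the alternatives given in the closing section.

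Dhcr7, which carries out a last step of cholesterol synthesis, measured 33.3, 32.6 and 36.5 CPM in KO cohort WT and 40.2, 47.6 and 40.9 CPM in KO, a log2 difference of 0.33 ± 0.12 (SE; adjusted p = 0.23). Tm7sf2, a sterol C14 reductase, measured 39.6, 42.6 and 46.0 CPM in KO cohort WT and 53.7, 51.1 and 47.7 CPM in KO, with 0.25 ± 0.09 (SE; adjusted p = 0.256). Neither gene's groups overlapped, and 12.1% of the exon bases of Tm7sf2 are shared with Vps51. In all, 7 members had no overlap with the KO libraries higher (Tm7sf2, Dhcr7, Srebf1, Scap, Fasn, Scd2 and Abca1) and 0 with them lower, where 12.7% of all tested genes had no overlap in each direction. Fatty acid genes were positive in 7 of 8 cases, Scd2 at 0.30 and Fads2, a desaturase of polyunsaturated fatty acids, at 0.34, and 0 of the 8 passed the test. Of the mevalonate enzymes 5 of 7 were negative, from Hmgcs1 at -0.22 upwards. Germinal centre B cell markers summed to 10990.1 to 11610.5 CPM in KO against 12438.7 to 12644.6 CPM in KO cohort WT, and proliferation markers to 7147 to 8025 CPM against 8028 to 9014 CPM. Plasma cell markers summed to 566 to 586 CPM in KO against 646 to 676 CPM, dendritic cell markers to 35.3 to 39.0 against 47.0 to 58.0 CPM, erythroid markers to 111 to 121 against 135 to 141 CPM and stromal markers to 42.6 to 46.6 against 48.2 to 60.4 CPM. These 6 sums were lower in KO without overlap, and their part in the KO differences was not tested. Jchain made up most of the plasma cell sum (388 to 410 CPM in KO) and Flt3 of the dendritic sum (34.2 to 38.5 CPM). Tfrc made up most of the erythroid sum (107 to 116 CPM) and Pecam1 of the stromal sum (42.4 to 46.4 CPM). Mki67, in the germinal centre and proliferation lists, was at 3035 to 3724 CPM in KO and 3874 to 4494 CPM in KO cohort WT. Of the 12 proliferation genes 5 were positive and 7 negative, with a median of -0.008.

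**Figure D2:**
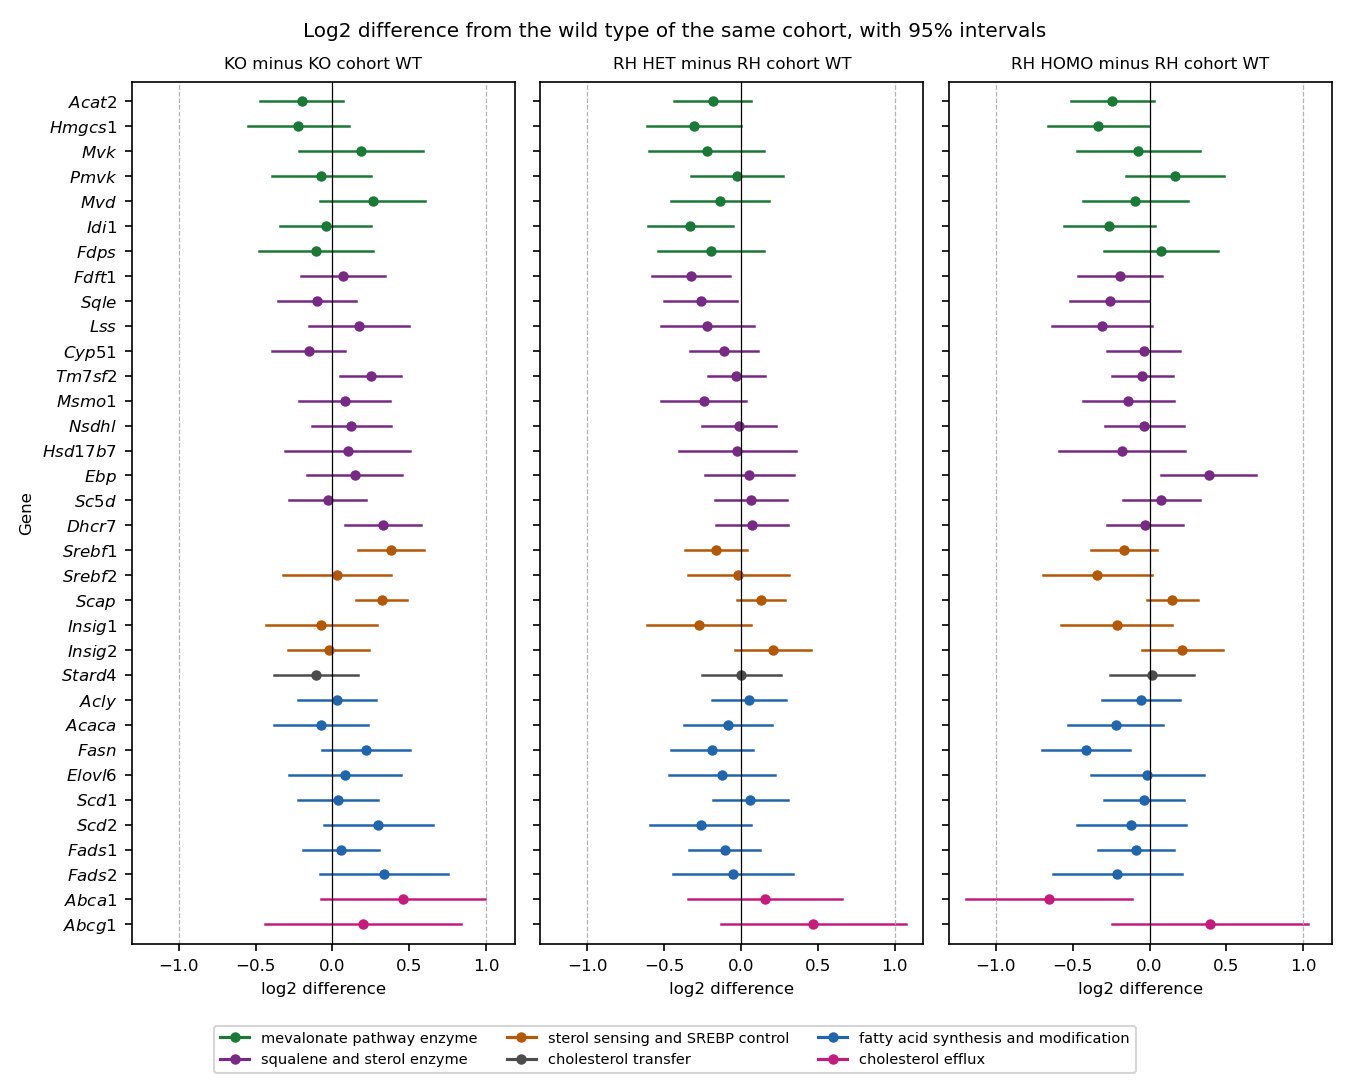
Log2 difference of each of the 34 genes from the wild type of its own cohort, with 95% intervals, in KO, RH HET and RH HOMO, coloured by role; dashed lines mark 2-fold. Most intervals cross 0. Those on one side of it, without passing adjustment over all genes, include Scap, Srebf1, Dhcr7 and Tm7sf2 in KO. They also include Fdft1, Idi1 and Sqle in RH HET and Fasn, Ebp and Abca1 in RH HOMO.

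In RH HET against RH cohort WT most sterol enzymes had negative differences, and none was called by edgeR. edgeR called 0 of 34 members, against 0.0181% of all tested genes, DESeq2 called 0, and limma-voom called 1 lower, Fdft1. The limma-voom share over all genes is not given here. At an unadjusted p under 0.05 there were 3 members, or 8.82%, against 7.18% of all genes. Of the 18 mevalonate, squalene and sterol enzymes 15 were negative, with a median of -0.16, and the median of all 34 members was -0.10 beside -0.007 over all tested genes. That median was -0.19 without RH cohort WT 1 and -0.01 without RH cohort WT 2. RH HET and RH HOMO share the RH cohort WT libraries as controls, so the comparisons with wild type of the RH cohort are not independent of each other. No member had groups without overlap, in either direction, where 2.97% of all genes had RH HET higher and 3.52% lower. The 95% interval lay within 1.5-fold for 27 of the 34 members.

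Fdft1, which makes squalene, measured 51.6, 68.6 and 58.4 CPM in RH cohort WT and 50.5, 53.8, 43.6 and 42.0 CPM in RH HET. RH HET 1, 3 and 4 were below all RH cohort WT libraries and RH HET 2 was inside their range, with a log2 difference of -0.33 ± 0.12 (SE; adjusted p = 0.596). Of the exon bases of Fdft1, 18.3% overlap Ctsb on the other strand. Idi1, the isomerase that makes the second isoprene building block, measured 26.8, 34.8 and 36.0 CPM in RH cohort WT and 28.4, 22.0, 26.3 and 27.0 CPM in RH HET, with -0.33 ± 0.13 (SE; adjusted p = 0.636). Its lowest wild type library, RH cohort WT 1, lay among the RH HET values.

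Sqle, the squalene epoxidase, measured 90.5, 115 and 103 CPM in RH cohort WT and 103, 89.7, 75.8 and 74.7 CPM in RH HET, with -0.26 ± 0.11 (SE; adjusted p = 0.662). Hmgcs1 measured 126, 184 and 179 CPM in RH cohort WT and 159, 127, 117 and 125 CPM in RH HET, with -0.31 ± 0.15 (SE; adjusted p = 0.694). Without RH cohort WT 2 the differences were -0.20 for Fdft1, -0.16 for Sqle and -0.20 for Hmgcs1. For Sqle and Hmgcs1 RH HET 1 stood among the wild type libraries while RH HET 3 and RH HET 4 were below all of them, as was RH HET 2 for Sqle. Scap measured 53.0 to 59.3 CPM in RH HET, a difference of 0.13 on the log2 scale, and Srebf1 measured 104 to 139 CPM, with -0.16 (95% interval -0.37 to 0.04). Srebf2 differed by -0.02 (95% interval -0.35 to 0.31), Insig1 by -0.27 (-0.61 to 0.06) and Insig2 by 0.21 (-0.04 to 0.46). Insig1 was at -0.07 without RH cohort WT 2, and the signs of Srebf1, Srebf2 and Insig2 turned under alternatives given in the closing section. The log2 difference of proliferation markers was negative for 12 of 12 genes, and they summed to 6591 to 7759.7 CPM in RH HET against 7391 to 8234 CPM in RH cohort WT; the part of that in the enzyme values was not tested.

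**Figure D3:**
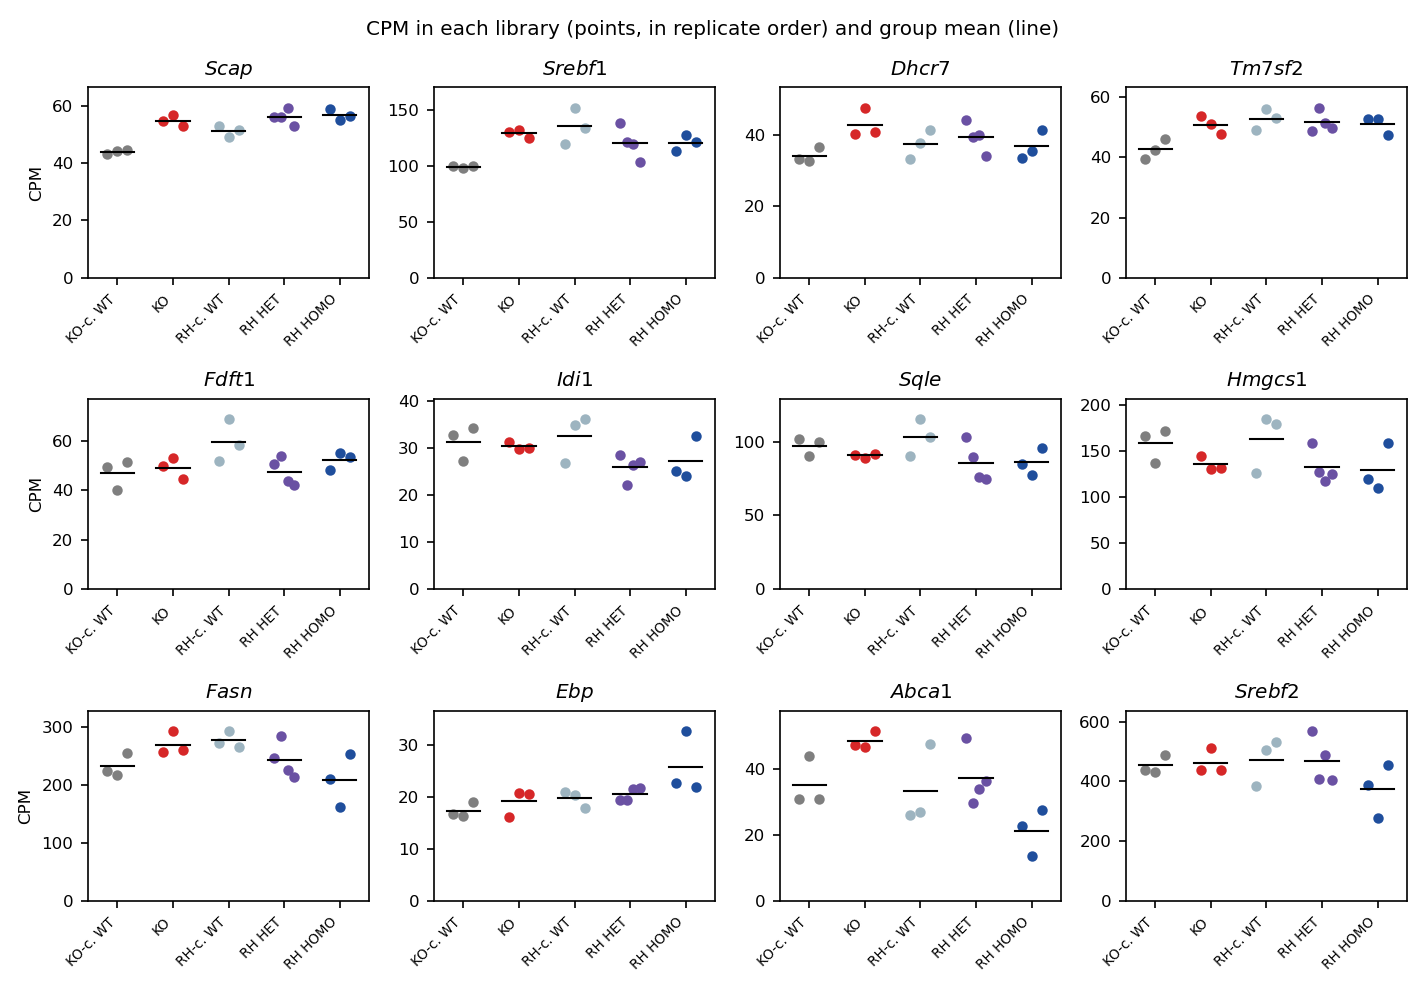
CPM of 12 named genes in each library, points in replicate order, with the group mean as a line; the axes start at 0 and differ between genes. Scap and Srebf1 are tight in KO cohort WT and higher in KO, while Hmgcs1, Sqle and Fdft1 spread widely within RH cohort WT and RH HET.

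In RH HOMO against RH cohort WT, 0 of 34 members were called by edgeR (all tested genes, 1.57%) and by DESeq2. By limma-voom 1 was called higher (Insig2) and 4 lower (Acat2, Hmgcs1, Lss and Fasn), and its share over all genes is not given here. There were 5 members at an unadjusted p under 0.05, or 14.7%, against 12.9% of all genes. The median log2 difference was -0.09, with 26 of 34 negative, beside 0.016 over all tested genes, and it was -0.19 without RH cohort WT 1 and -0.03 without RH cohort WT 2. All 8 fatty acid genes were negative, with a median of -0.10. Among the members 2 had no overlap with RH HOMO higher (Ebp and Scap), against 7.39% of all genes, and 1 with it lower (Fasn), against 8.03%.

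Fasn measured 272, 294 and 266 CPM in RH cohort WT and 209.9, 163 and 253 CPM in RH HOMO. All RH HOMO libraries were below all RH cohort WT libraries, with a log2 difference of -0.41 ± 0.14 (SE; adjusted p = 0.153). Without RH HOMO 2 the difference was -0.26, and without RH HOMO 3 it was -0.58 and called (adjusted p = 0.0373). Ebp, a sterol isomerase, measured 21.1, 20.4 and 17.9 CPM in RH cohort WT and 22.8, 32.8 and 21.9 CPM in RH HOMO, with 0.38 ± 0.15 (SE; adjusted p = 0.246). The RH HOMO 2 library was the highest of all for Ebp, and without it the difference was 0.17.

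Abca1, the exporter that loads cholesterol onto lipoproteins, measured 26.0, 26.9 and 47.7 CPM in RH cohort WT and 22.8, 13.6 and 27.6 CPM in RH HOMO, with -0.65 ± 0.26 (SE; adjusted p = 0.264). Its groups overlapped, and without RH cohort WT 3 the difference was -0.32. Hmgcs1 measured 119.5, 110.3 and 159 CPM in RH HOMO, with -0.33 ± 0.16 (SE; adjusted p = 0.379), and the range over left-out libraries ran from -0.52 to -0.23. Scap stood at 58.8, 55.0 and 56.4 CPM in RH HOMO, above each RH cohort WT library, with a difference of 0.15 (95% interval -0.02 to 0.31). Srebf1 differed by -0.16 (-0.38 to 0.05), Srebf2 by -0.34 (-0.69 to 0.01), Insig1 by -0.21 (-0.57 to 0.15) and Insig2 by 0.21 (-0.05 to 0.48). Without RH HOMO 2, Srebf2 differed by -0.17, and without RH cohort WT 2, Insig1 differed by -0.02 and Srebf1 by -0.07. The sign of Srebf1 turned when the wild type libraries of both cohorts served as controls, and that of Insig2 with a term for the mitochondrial share. Proliferation markers summed to 6477 to 7281 CPM in RH HOMO against 7391 to 8234 CPM in RH cohort WT, and NK cell markers to 0.56 to 0.64 against 0.05 to 0.16 CPM. Neither sum overlapped, and their part in these differences was not tested. Klrb1c made up most of the NK cell sum (0.41 to 0.60 CPM in RH HOMO). In RH HET the NK cell sum was also above RH cohort WT without overlap, from 0.35 CPM upwards. Mki67, the most abundant proliferation gene, was at 2039 to 2710 CPM in RH HOMO and 3074 to 3289 CPM in RH cohort WT. Of the 12 proliferation genes 4 were positive and 8 negative in RH HOMO, with a median of -0.09.

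The RH HOMO 2 library departed from the other RH HOMO libraries with gene length. Over all genes of at least 4 CPM, its median departure was 0.28 log2 in the class with the shortest exons (up to 3.24 kb), 0.02 in the middle class and -0.27 in the class with the longest. The members' own medians in these classes were 0.42 (7 genes), -0.23 (18 genes) and -0.09 (9 genes), so their longest class was not the lowest. Pmvk (1.71 kb of exon), the phosphomevalonate kinase, was higher by 0.72 and Ebp (2.31 kb) by 0.55, while Abca1 (10.4 kb) was lower by 0.86 and Acaca (17.1 kb), which makes malonyl-CoA, by 0.72. Fdps, which makes farnesyl diphosphate, was higher by 0.59 at 4.21 kb, and Fads2 was lower by 0.80 at 3.30 kb. Of the exon bases of Fdps, 26.7% are shared with Gm43738. RH HOMO 2 was the lowest of its group for 8 of 8 fatty acid genes and 20 of 34 members, where it was lowest for 39.9% of all genes. The share of reads on ribosomal protein genes was 8.89% in RH HOMO 2, against 6.27% and 5.12% in the other RH HOMO libraries, and the part of these departures in the comparison was not tested.

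**Figure D4:**
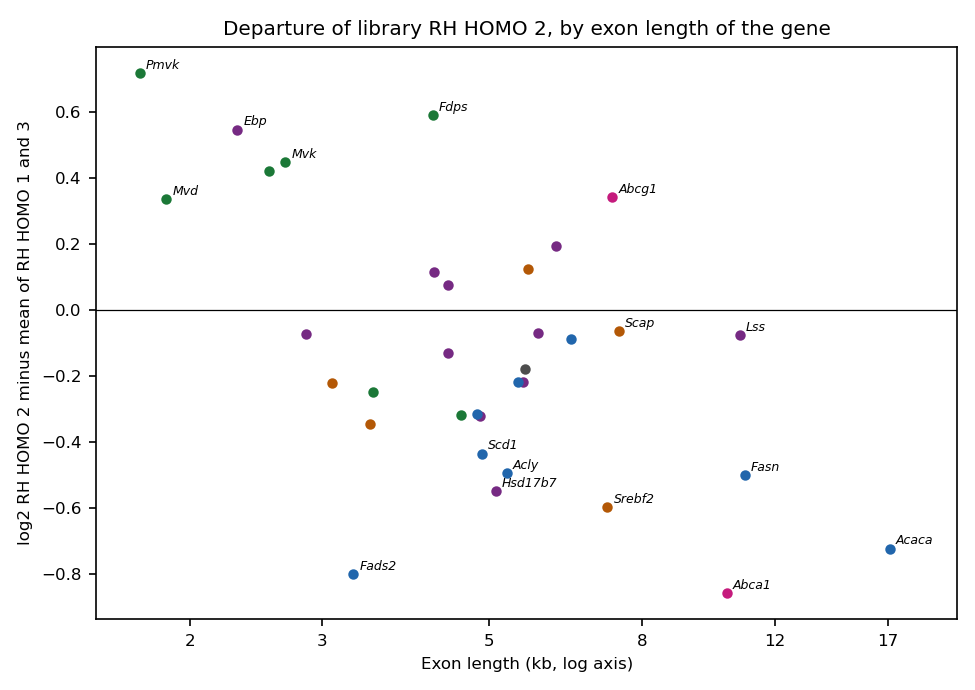
Departure of the RH HOMO 2 library from the mean of the other RH HOMO libraries (log2, y axis) against exon length in kb on a log axis, 1 point per gene, coloured by role (green mevalonate, purple squalene and sterol, orange sterol sensing, blue fatty acid, pink efflux, grey transfer). Pmvk and Ebp are high at the short end and Abca1 and Acaca are low at the long end, and Fdps and Fads2, of middle length, are far above and far below 0.

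Set against each other, RH HOMO and RH HET differed in 0 members by edgeR (all tested genes, 0%), by DESeq2 and by limma-voom, and 2 members had an unadjusted p under 0.05, or 5.88%, against 11.4% of all genes. The median difference was 0.003. Abca1 had no overlap with RH HOMO lower, at -0.81 ± 0.24 (SE; adjusted p = 0.279), and Ebp none with RH HOMO higher, at 0.33 ± 0.14 (SE; adjusted p = 0.409). Of all tested genes 4.28% and 3.78% had no overlap in those directions.

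Whether the homozygous knock-in and the knockout moved these genes differently was tested as the difference of their effects, each against its own wild type. edgeR called 0 members, against 0.241% of all genes, DESeq2 called 1 (Srebf1) and limma-voom 2 (Srebf1 and Fasn). The shares of DESeq2 and limma-voom over all genes are not given here. The median difference was -0.16 over the members and 0.008 over all genes, and 6 members had an unadjusted p under 0.05, or 17.6%, against 9.53% of all genes. On the log2 scale this difference (RH HOMO less KO) was -0.54 ± 0.14 (SE; adjusted p = 0.148) for Srebf1, -0.63 ± 0.19 (SE; adjusted p = 0.22) for Fasn and -1.11 ± 0.36 (SE; adjusted p = 0.261) for Abca1. Mean Srebf1 was 121 CPM in RH HOMO and 129 CPM in KO, but 135 CPM in RH cohort WT and 99.4 CPM in KO cohort WT. For Srebf1 the wild type groups thus stood further apart than the mutant groups, and the part of that gap was not tested.

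Over the 6 comparisons Srebf1 was the only member that edgeR called, and it was called between the wild type groups of the cohorts. It was higher in RH cohort WT by 0.45 ± 0.10 (SE, log2; adjusted p = 0.0262), and 5.06% of all tested genes were called. Without KO cohort WT replicate 1, 2 or 3 or RH cohort WT replicate 2, with RH cohort WT 1 placed in the KO cohort as its batch tag has it, or with a term for the mitochondrial share, the call was lost, with adjusted p from 0.066 to 0.401. The difference itself ran from 0.36 to 0.53 with 1 library left out, and was 0.47 with RH cohort WT 1 in the KO cohort and 0.45 with the mitochondrial term. Across the cohorts 6 members had no overlap with RH cohort WT higher (Pmvk, Fdft1, Tm7sf2, Srebf1, Scap and Fasn), against 17.4% of all genes, and 0 with it lower, against 16.8%. Whatever else differed between the cohorts cannot be told apart from the cohort itself.

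Within groups, the same library was often the lowest for many sterol enzymes. KO cohort WT 2, the deepest library, was the lowest of its group for 17 of 18 mevalonate, squalene and sterol enzymes, where it was lowest for 33.1% of all genes. RH cohort WT 1 was lowest for 15 of 18, where it was lowest for 38.7% of all genes. KO 3 was lowest for 12 of 18 (30.7% of all genes) and RH HET 4 for 11 of 18 (23.7%). Summed over the 18 enzymes, CPM ran from 938 to 1103 in KO cohort WT, 960 to 1054 in KO, 958 to 1218 in RH cohort WT, 913 to 1096 in RH HET and 967 to 1090.4 in RH HOMO, ranges that overlap. Abca1 was the highest of its group in KO cohort WT 2 (44.2 CPM) and KO 3 (51.8 CPM), the lowest in RH cohort WT 1 (26.0 CPM), and between the others in RH HET 4 (36.5 CPM). Between libraries of a group the median SD was 0.18 log2 for the members and 0.16 for genes in the members' CPM range, and Scap had one of the smallest, 0.05.

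**Figure D5:**
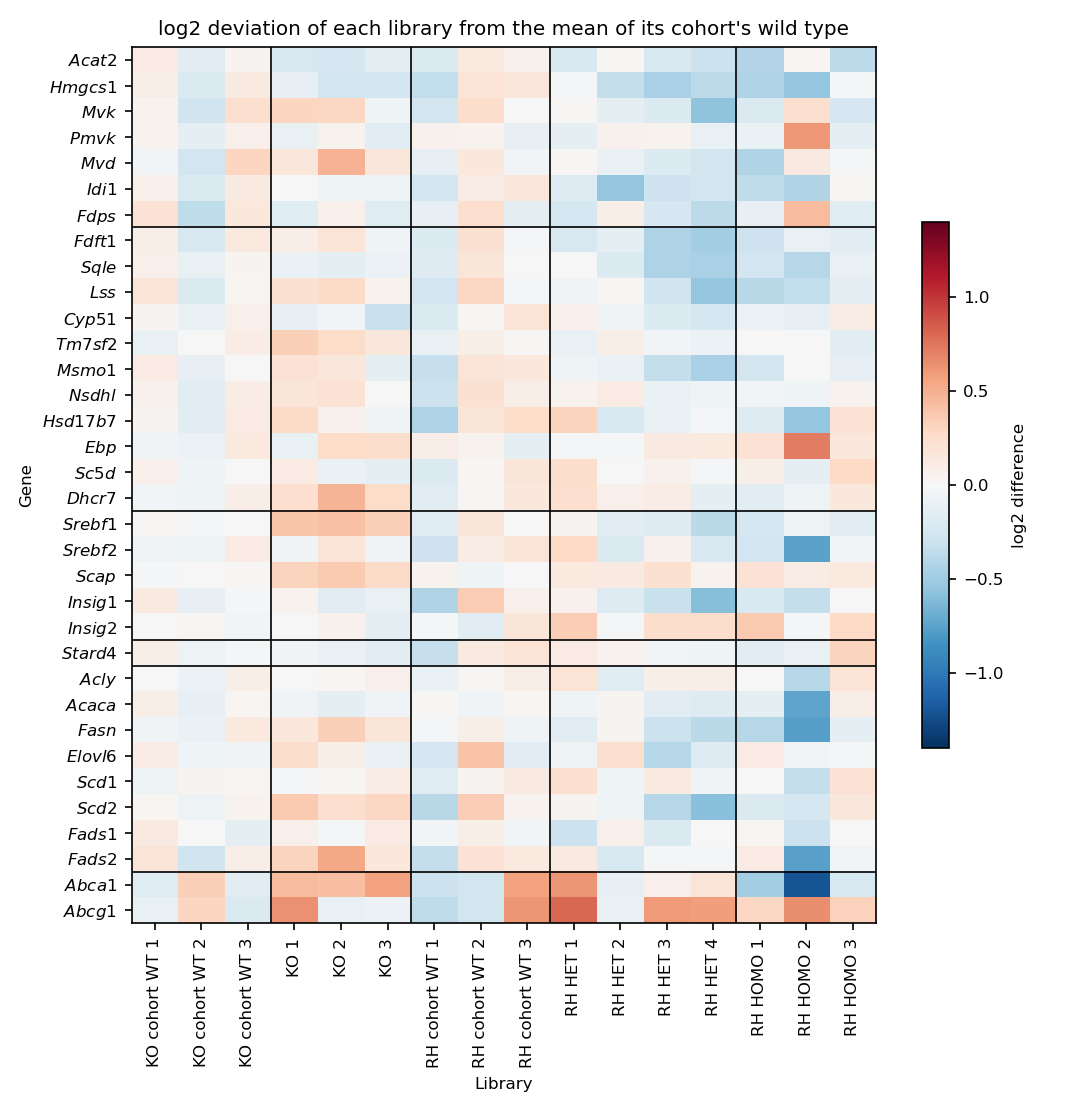
Log2 deviation of each gene (rows, by role) in each library (columns) from the mean of its cohort's wild type, red higher and blue lower. The mevalonate and sterol rows turn blue together in KO cohort WT 2, RH cohort WT 1 and RH HET 4, and the RH HOMO 2 column mixes strong red and blue.

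Other genes of the pathway were read from 3 lists: 35 tested sterol and fatty acid genes outside the members, 11 tested genes of the isoprenoid branch, and 3 tested oxysterol genes. In KO 0 of 35, 0 of 11 and 1 of 3 were called (all tested genes, 1.3%), and in RH HET 0 of each list (0.0181%). In RH HOMO 1 of 35, 0 of 11 and 1 of 3 were called (all tested genes, 1.57%). The median log2 difference of the 35 genes was 0.08 in KO, 0.03 in RH HET and 0.01 in RH HOMO. Of these 35, 24, 21 and 19 were positive in turn. The medians of the 34 members were 0.07, -0.10 and -0.09, so their negative lean in the RH cohort was not seen in this list. Npc2, which hands cholesterol out of lysosomes, measured 27.1, 27.8 and 26.3 CPM in RH cohort WT and 35.4, 48.1 and 36.1 CPM in RH HOMO, and rose by 0.56 ± 0.12 (SE, log2; adjusted p = 0.0207). Gpr183, the receptor by which oxysterols guide B cells, measured 7.55, 9.21 and 11.1 CPM in RH cohort WT and 19.3, 17.8 and 15.9 CPM in RH HOMO, and rose by 0.92 ± 0.22 (adjusted p = 0.0443). Both were higher in 3 of 3 RH HOMO libraries than in any RH cohort WT library, as were 7.39% of all tested genes. Of 6 follicular B cell markers 3 were positive and 3 negative in RH HOMO. Ccr6 (16.9 to 24.3 against 8.91 to 15.3 CPM) and Cd38 (52.3 to 64.4 against 22.2 to 45.1 CPM) were higher without overlap. Fcer2a was lower without overlap, at 186 to 204 against 214 to 277 CPM. The part of such cells in these differences was not tested.

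Cyp27a1, which makes 27-hydroxycholesterol, measured 13.1, 14.6 and 17.5 CPM in KO cohort WT and 7.37, 8.42 and 4.11 CPM in KO, and fell by 1.18 on the log2 scale (SE 0.26, adjusted p = 0.0341). In RH HOMO it was at 9.44 ± 3.55 CPM against 16.5 ± 1.42 CPM in RH cohort WT (SD, n = 3 each), with -0.81 (adjusted p = 0.145). Macrophages also express Cyp27a1, and their markers summed to 19.0 to 20.1 CPM in KO against 18.4 to 24.8 CPM in KO cohort WT, a part in the result that was not tested. In the isoprenoid branch Ggps1, which makes geranylgeranyl diphosphate, differed by 0.23 in RH HOMO (adjusted p = 0.227) and Rce1, which trims prenylated proteins, by 0.29 (adjusted p = 0.281).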

How the data were processed

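The authors deposited whole-number read counts per gene for 16 libraries, with 0 other sample columns. RNA was total RNA (NucleoSpin RNA XS) made into TruSeq RNA v2 libraries, which do not mark strand, per the labels' protocols. CASAVA 1.8, HISAT2, featureCounts and the mm10 build are named in the submitters' processing notes; other versions, the strand setting and the annotation are not given in the sources at hand. Groups came from the titles, and replicate numbers, in accession order, only name a library. Replicate counts differed beyond sampling noise, so each library was counted once. R 4.3.3 with edgeR 4.0.16 was used: filterByExpr, TMM, 5 group means over all 16 libraries (11 residual degrees of freedom), quasi-likelihood tests and Benjamini-Hochberg adjustment over 16606 genes, with a call at 0.05. The test was also run on simulated counts with changes of 2-fold or more, and the outcome is not given here. All differences of the members from wild type were smaller than 2-fold, so that run does not speak to them. DESeq2 1.42.0 and limma 3.58.1 (voom with quality weights) were alternatives. The shares of all tested genes called, as printed here, belong to the main edgeR test and not to any alternative setting. Exon lengths and positions came from GENCODE M21 (GRCm38), and log2 values per library used a prior of 0.5 CPM. An exon length is the union of all annotated exons of a gene, not the length of 1 transcript. The members and lists were chosen with earlier results of these data known. Named genes were members called in any comparison, the 4 with the smallest p in each comparison with wild type, and all 5 sterol sensing genes, plus called genes of the other lists, or the 2 with the smallest p.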

Additional observations from a re-analysis of the deposited data

How the results depend on the processing

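No paired analysis was possible because the labels give no replicate numbers, and the numbers used here follow accession order. Under the alternatives 210 counts of called members stayed within 1.5 times the main count and 30 did not. Most main counts were 0, so staying mostly meant staying at 0. The share of all genes called under each alternative is not given here, so the member counts below cannot be set against it. Of the medians, 108 moved by less than the spread between libraries (SD 0.116 log2) and 6 by more. That spread is larger than most of the main medians, so a median could change sign without counting as moved. In KO the count called higher, 0 in the main analysis, was 1 without immunoglobulin and T cell receptor genes, with a filter of 1 CPM in 3 libraries and with a term for the mitochondrial share (Scap each time), 2 with DESeq2, limma-voom or an adjusted p under 0.1 (Srebf1 and Scap), and 3 with only the libraries compared. It was 0 whichever library was left out. In RH HET limma-voom called 1 lower (Fdft1). In RH HOMO limma-voom called 1 higher and 4 lower, all 6 wild type libraries as 1 control group gave 1 higher (Ebp), a mitochondrial term gave 1 lower (Abca1), and leaving out 1 library gave 0 to 1 lower. In RH HOMO minus RH HET, no count filter gave 1 lower (Abca1). For the difference of effects 1 lower was called with no filter, with all wild type libraries together and with a mitochondrial term (Abca1), 1 with DESeq2 (Srebf1) and 2 with limma-voom. Its median, -0.16, was -0.34 with RH cohort WT 1 in the KO cohort, and ran from -0.29 to -0.12 with 1 library left out. Between the wild type groups the count called higher, 1, was 2 at 1 CPM, 3 with DESeq2 or an adjusted p under 0.1, 10 with limma-voom, 3 without RH cohort WT 1 and RH HOMO 2 together, 0 with RH cohort WT 1 in the KO cohort or a mitochondrial term, and 0 to 1 with 1 library left out. The median there, 0.07, was 0.22 with RH cohort WT 1 in the KO cohort, 0.20 with a mitochondrial term, 0.20 without both libraries, and from 0.000718 to 0.20 with 1 library left out. The cause was not tested.

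Among the named genes, the signs that turned belonged to sterol sensing genes that edgeR did not call in that comparison. Of these, limma-voom called Insig2 in RH HOMO. In KO, Srebf2 was -0.00264 with all wild type libraries together and Insig2 0.0477, Insig1 was 0.00217 and Insig2 0.0251 with RH cohort WT 1 in the KO cohort, and Insig2 was 0.0146 with a term for sex. With 1 library left out, KO values ran from -0.0391 to 0.0897 for Srebf2, -0.129 to 0.0034 for Insig1 and -0.0563 to 0.0358 for Insig2. In RH HET, Srebf1 was 0.0419 and Srebf2 0.0135 with all wild type libraries together, Insig2 was -0.0281 with a mitochondrial term, and Srebf2 ran from -0.14 to 0.0797 with 1 library left out. In RH HOMO, Srebf1 was 0.0421 with all wild type libraries together and Insig2 -0.00353 with a mitochondrial term. The cause was not tested.

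The precision rests on 3 or 4 libraries a group and on spread between libraries more than on depth, since the least abundant member, Abcg1, still had 3.41 to 8.23 CPM.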
